A study of Mus musculus with 9 samples.

Results

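RING1B ChIP-seq peaks at gene promoters of *Eed+/+* mouse embryonic stem cells (mESCs) were examined where the *Eed-/-* mESCs had no called peak. A promoter peak was a peak on chromosomes 1 to 19 whose distance to the first exon of its gene, as deposited, was at most 1000 bp. Of 1181 such *Eed+/+* peaks, 476 shared 0 bp with every *Eed-/-* peak, which is 40.3% (exact 95% interval 37.5 to 43.2). These 476 peaks at 475 named genes are called *Eed+/+*-only promoter peaks here, and the other 705 are called overlapping promoter peaks. Among the 1126 *Eed+/+* peaks of these chromosomes that were not promoter peaks, 591 (52.5%) had no *Eed-/-* overlap, and among all 2307 the share was 46.3%. The whole lists held 2347 *Eed+/+* and 1810 *Eed-/-* peaks. Absence from the *Eed-/-* list means that no peak was called there, and RING1B below the calling threshold was not measured.

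RING1B is the catalytic subunit of Polycomb-repressive complex 1 (PRC1), which attaches ubiquitin to histone H2A at silent developmental genes. EED is a core subunit of the second complex, PRC2, which trimethylates H3K27. In mESCs Polycomb proteins lie mainly over CpG-rich promoters of genes that are off but can be switched on during differentiation, and PRC1 complexes that hold a CBX protein bind the trimethylated H3K27.

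The mESCs were of the strain C57BL/6, and the genotype was wild type (*Eed+/+*) or *Eed -/-*. Chromatin was precipitated with an antibody to RING1B and sequenced, and each genotype had 1 deposited peak list, so no value has a replicate error. The labels give 1 *Eed+/+* RING1B sample and 3 *Eed-/-* RING1B samples numbered as replicates, which the study describes as sequencing lanes. The 3 input samples are all labelled wild type, and no *Eed-/-* input is among the samples. The 2 CBX7 samples were not analysed here. Nothing in the sources used here states that the *Eed-/-* samples came from separate cultures, and a difference between the genotypes cannot be told apart from a difference between the immunoprecipitates or their depths.

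The sequence under the peaks is shown first, because CG content was a property that the choice of peaks did not use. Each line is a window of 201 bp around the summit of an *Eed+/+* peak, read 5′ to 3′ on the + strand of mm9, with every CG dinucleotide in capitals. The windows were taken in pairs, with an *Eed+/+*-only peak before an overlapping one. *Kcnc2* (chr10:111708872-111709072), a potassium channel gene, and *Cyp1b1* (chr17:80112957-80113157), a cytochrome P450 gene, lie in the highest of 4 bins of equal size by tags. *Sema4c* (chr1:36614496-36614696), a semaphorin gene, and *Dmrt1* (chr19:25580481-25580681), a gene of testis differentiation, lie in the lowest bin. *Hmx3* (chr7:138687899-138688099) had a fold enrichment among the highest of the *Eed+/+*-only peaks, and *Zic1* (chr9:91259236-91259436) had the highest of the overlapping peaks. The *Sema4c* window lies in an intron and the other windows lie inside coding exons. This place is not typical, since 79 of 476 *Eed+/+*-only windows (16.6%) and 190 of 705 overlapping windows (27.0%) lay inside a coding exon. Untranslated regions were the commonest place, with 40.8% and 36.6%.
Kcnc2: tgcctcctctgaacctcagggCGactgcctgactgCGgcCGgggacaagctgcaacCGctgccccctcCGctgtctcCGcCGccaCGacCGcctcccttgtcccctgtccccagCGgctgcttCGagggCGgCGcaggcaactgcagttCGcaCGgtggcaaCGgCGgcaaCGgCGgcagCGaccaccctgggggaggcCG
Cyp1b1: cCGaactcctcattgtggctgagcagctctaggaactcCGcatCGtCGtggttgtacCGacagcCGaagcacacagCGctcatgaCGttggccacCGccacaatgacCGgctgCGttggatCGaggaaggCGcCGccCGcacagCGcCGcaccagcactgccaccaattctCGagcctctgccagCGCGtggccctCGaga
Sema4c: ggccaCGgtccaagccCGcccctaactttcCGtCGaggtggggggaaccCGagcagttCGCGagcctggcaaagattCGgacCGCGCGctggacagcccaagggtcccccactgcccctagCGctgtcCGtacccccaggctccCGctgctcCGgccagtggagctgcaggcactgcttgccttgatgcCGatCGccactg
Dmrt1: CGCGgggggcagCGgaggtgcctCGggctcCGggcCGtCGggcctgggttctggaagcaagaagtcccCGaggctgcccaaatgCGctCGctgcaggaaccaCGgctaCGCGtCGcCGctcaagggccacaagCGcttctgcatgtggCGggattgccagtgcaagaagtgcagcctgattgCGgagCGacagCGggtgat
Hmx3: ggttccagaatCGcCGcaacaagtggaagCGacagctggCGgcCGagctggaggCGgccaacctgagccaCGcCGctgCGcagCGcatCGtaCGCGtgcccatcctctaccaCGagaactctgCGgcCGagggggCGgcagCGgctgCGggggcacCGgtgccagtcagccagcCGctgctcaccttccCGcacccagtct
Zic1: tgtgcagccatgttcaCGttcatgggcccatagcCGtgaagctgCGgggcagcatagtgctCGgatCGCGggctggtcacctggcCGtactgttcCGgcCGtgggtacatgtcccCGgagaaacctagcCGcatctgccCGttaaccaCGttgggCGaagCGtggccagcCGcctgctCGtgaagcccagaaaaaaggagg
The windows hold 21 CG at *Kcnc2* and 21 at *Cyp1b1*, 17 at *Sema4c* and 20 at *Dmrt1*, and 22 at *Hmx3* and 17 at *Zic1*. In the highest bin of tags the median window held 18 CG in *Eed+/+*-only peaks and 20.5 in overlapping peaks, so the *Kcnc2* window is richer than its median, and in the lowest bin the medians were 17 and 20. All 1181 promoter windows (100%) held at least 1 CG. The median was 18 CG in the 476 *Eed+/+*-only windows (quartiles 13 and 23) and 20 in the 705 overlapping windows (16 and 25). Single windows of both kinds therefore cover much the same range, and the sets differ by a shift of their medians.

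Over whole peaks, the *Eed+/+*-only promoters were poorer in CG. Their median was 4.98 CG per 100 bp (quartiles 4.16 and 6.00), against 5.84 (4.99 and 7.03) in overlapping peaks, a ratio of 0.854. Of the 476 peaks, 336 (70.6%) lay below the median of the overlapping set. The GC content was 58.5% against 59.96%, and the observed to expected CpG ratio was 0.598 against 0.663. A CpG island, found by sequence, touched 462 of 476 *Eed+/+*-only peaks (97.1%, 95.1 to 98.4) and 704 of 705 overlapping peaks (99.9%, 99.2 to 100). With islands of at least 500 bp, 55% GC and a ratio of 0.65, these shares were 75.8% (71.7 to 79.6) and 95.3% (93.5 to 96.8), so that 115 *Eed+/+*-only peaks and 33 overlapping peaks had no island of that kind. The island sequence under a peak had a median of 791.5 bp in the first set and 1248 bp in the second. Intervals of shares here and below are exact and cover counting error only, since peaks are not replicates.

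Tags and fold enrichment were lower in the *Eed+/+*-only set. These measures belong to the same contrast as the choice of the peaks and are given as a description. The median was 154 tags per peak (quartiles 121 and 225.2), against 252 (164 and 438) in overlapping peaks. Fold enrichment over background was 12.4 against 19.1 and tags per kb were 68.0 against 93.8. The median width was 2403 bp against 2723 bp. Of the 476 peaks, 380 (79.8%) had fewer tags per kb than the median overlapping peak and 319 (67.0%) were narrower. The ranges overlapped widely, since *Eed+/+*-only peaks reached 1363 tags and a fold enrichment of 67.7, and overlapping peaks fell to 101 tags and 4.18.

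**Figure D1:**
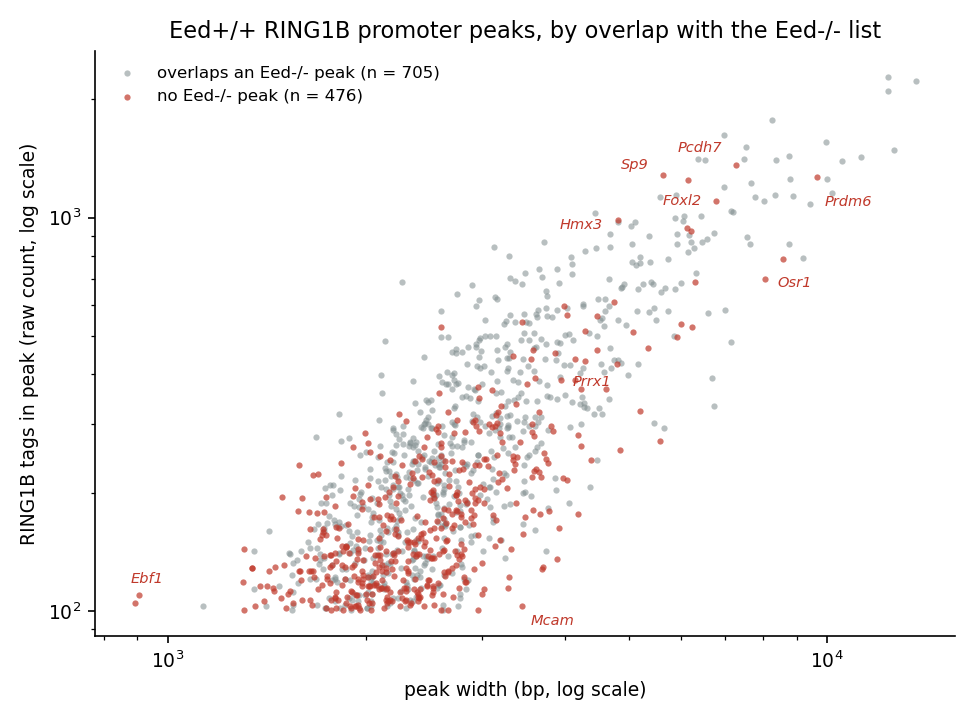
Width in bp (x axis) and raw RING1B tags (y axis), both on log scales, of the 1181 *Eed+/+* promoter peaks, each of which is a point. The 476 peaks without an *Eed-/-* peak (red) crowd at low tags, with a median of 154 against 252 for the overlapping peaks (grey), and a few reach over 1000 tags.

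The share of promoter peaks without an *Eed-/-* peak fell with every measure of peak size. In 4 bins of equal size by tags it was 186 of 298 (62.4%, 56.6 to 67.9) at 101 to 138 tags, 142 of 293 (48.5%) at 139 to 201, 106 of 296 (35.8%) at 203 to 333, and 42 of 294 (14.3%, 10.5 to 18.8) at 337 tags or more. In bins of width it fell from 53.7% to 26.5%, and in bins of fold enrichment from 57.8% to 19.4%. In bins of CG density the share fell from 61.1% (55.3 to 66.7) in the lowest bin, up to 4.61 CG per 100 bp, to 23.1% (18.4 to 28.3) in the highest, from 6.70.

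**Figure D2:**
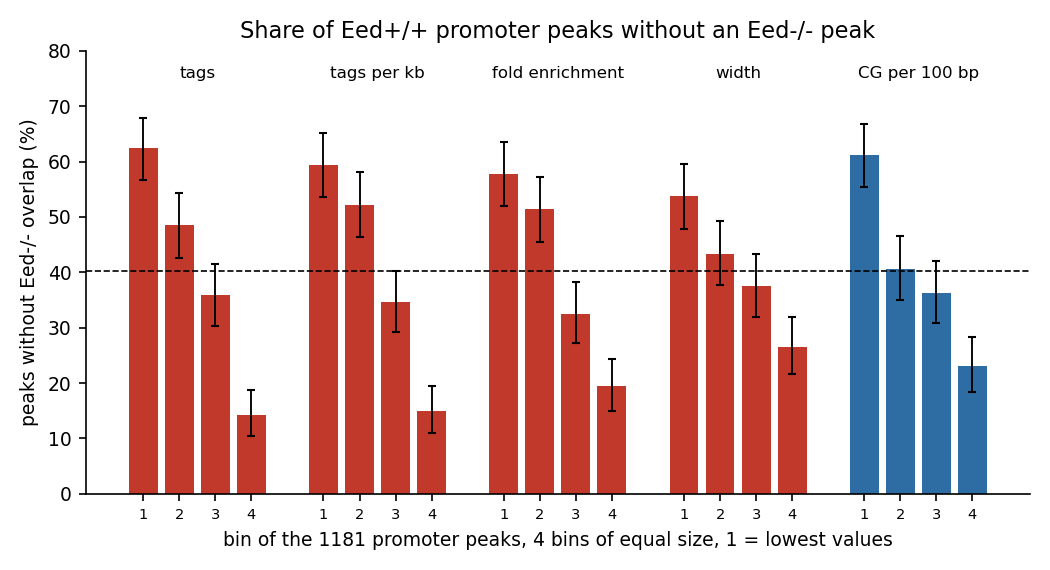
Share in percent of *Eed+/+* promoter peaks with no *Eed-/-* overlap (y axis) in 4 bins of equal size of each of 5 measures (x axis), with exact 95% intervals as error bars and the share over all promoter peaks, 40.3%, as a dashed line. The share falls from bin 1 to bin 4 in each measure, from 62.4% to 14.3% for tags and from 61.1% to 23.1% for CG density (blue).

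The difference in CG density was present among peaks of similar tag number. In the lowest bin of tags the median was 5.26 CG per 100 bp in *Eed+/+*-only peaks and 6.64 in overlapping peaks. The pairs of medians were 4.99 and 6.14 in the second bin, 4.77 and 5.75 in the third, and 4.36 and 5.47 in the highest. Within the lowest bin of tags, 60 of 71 CG-poor peaks (84.5%) and 37 of 92 CG-rich peaks (40.2%) had no *Eed-/-* peak, taking the lowest and highest bins of CG density. Within the highest bin of tags the counts were 21 of 78 (26.9%) and 1 of 62 (1.61%). Width went the other way once tags were held similar. The *Eed+/+*-only peaks had a median width of 2378 bp against 2240 bp in the second bin of tags, 2914 against 2613.5 bp in the third and 4386.5 against 3926 bp in the highest, while in the lowest bin both medians were close, 2069.5 and 2067 bp. The narrower median over all promoter peaks thus came with fewer tags, and at similar tags the *Eed+/+*-only peaks were as wide or wider and less dense in CG.

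**Figure D3:**
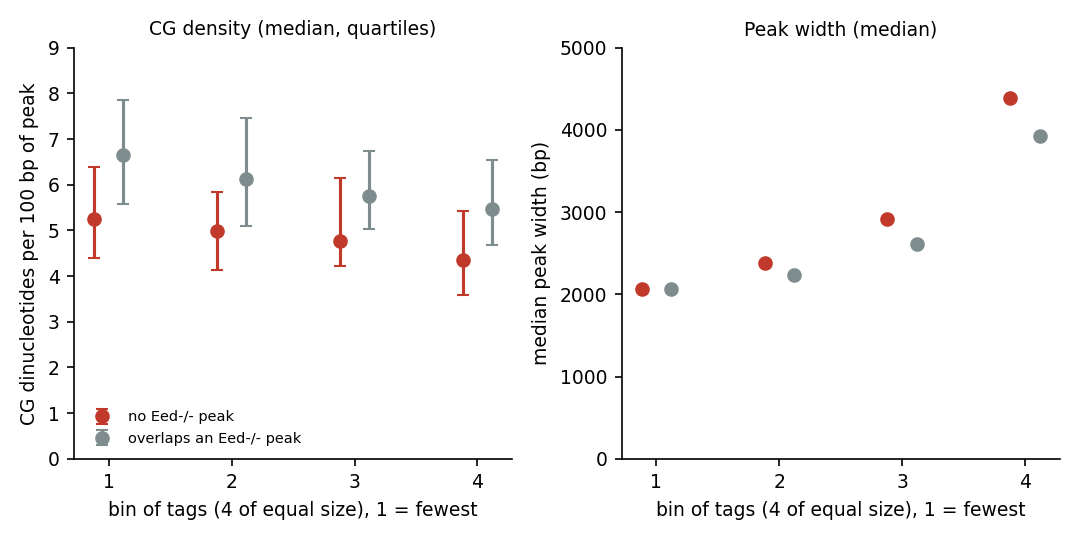
Median CG dinucleotides per 100 bp of peak with quartiles as error bars (left) and median peak width in bp (right), in bins of tags (x axis), for *Eed+/+*-only (red) and overlapping (grey) promoter peaks. Red medians lie below grey ones in all bins on the left (4.36 against 5.47 in the highest), and at or above them on the right (4386.5 against 3926 bp in the highest).

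The centre of the peak lay downstream of the start site of its gene in 75.2% of *Eed+/+*-only peaks and 75.9% of overlapping peaks. The peak contained that start site in 471 of 476 *Eed+/+*-only peaks (98.9%) and in 705 of 705 overlapping peaks. Containment cannot compare the sets, because the promoter definition limited the distance to the first exon in both. Annotated start sites of both strands lay within 15.8% and 17.7% of the peaks. A protein-coding gene of that name was in the annotation for 452 of the 476 (94.96%) and 667 of the 705 (94.6%). The deposited location of the peak included coding sequence in 94 *Eed+/+*-only peaks (19.7%, 16.3 to 23.6) and 207 overlapping peaks (29.4%, 26.0 to 32.9), and intron in 185 (38.9%) and 210 (29.8%).

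Most *Eed+/+*-only promoters were far from any *Eed-/-* peak. The gap to the nearest had a median of 342 kb (quartiles 108 and 902 kb) and reached 6.10 Mb. It was under 1000 bp for 9 peaks, under 10000 bp for 32 (6.72%) and under 100000 bp for 115 (24.2%). For 447 of the 476 peaks, no *Eed-/-* peak was assigned to the same gene anywhere, and for 29 peaks there was one. *Bcl11a*, which encodes a zinc finger repressor of the blood and brain, had its promoter peak (891 bp, 105 tags, fold enrichment 31.3) 63 bp from an *Eed-/-* peak, and of the 3 other *Eed+/+* peaks of the gene 2 overlapped an *Eed-/-* peak. *Ebf1*, a gene of B cell and neuronal differentiation, had a peak of 904 bp at fold enrichment 42.8 and 305 bp from an *Eed-/-* peak. The gaps of *Amn*, *Rnf220* and *Wnt11* were 82, 258 and 463 bp. These 5 peaks came closest to an overlap. On the other side of the limit, the overlapping promoter peaks with the fewest shared bases were *Dscam* (1033 bp shared), *Pde4a* (1050 bp), *T* (1057 bp), *Gpr120* (1064 bp) and *Nav2* (1066 bp), so that no promoter peak shared between 1 and 1032 bp.

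Of the *Eed+/+*-only promoters, *Prdm6*, a gene of the PR-domain zinc finger family, had the highest fold enrichment (67.7). Its peak, on chromosome 18 from 53620278 to 53629909, was also the widest at 9632 bp, with 1267 tags, and lay 0.931 Mb from an *Eed-/-* peak. *Prrx1* (chromosome 1, 165241550 to 165245844), a homeobox gene of limb and craniofacial mesenchyme, had 432 tags at 67.0 and a gap of 2.92 Mb. *Hmx3* (chromosome 7, 138683625 to 138688442), a homeobox gene of the inner ear, had 985 tags at 65.7, and *Sall3*, a spalt-like zinc finger gene, 942 tags at 62.6. *Hmx3* was the nearest of these to an *Eed-/-* peak, at 6.20 kb.
*Foxl2* (chromosome 9, 98853715 to 98859863), a forkhead gene of the ovary and eyelid, had 1247 tags at a fold enrichment of 56.7. The related *Sp9* and *Sp5*, zinc finger genes of the Sp family on chromosome 2, had 1281 tags at 53.3 and 1099 tags at 51.2. *Sp9* had the most tags per kb of the set, 227.5, and *Sp5* was the fifth widest peak at 6790 bp. *Ikzf3*, a lymphoid zinc finger gene, reached 49.2 with only 193 tags in 2028 bp, *Nrn1*, which encodes the neurite growth protein neuritin, 45.5 with 538 tags, and *Hoxb4* 44.5 with 367 tags.
By tags per kb, *Hmx3* (204.4), *Foxl2* (202.8), BC061194 (202.5), *Pcdh7* (187.5), *Sp5* (161.9), *Cdh22* (157.1), *Sall3* (153.5), *Dmrt2* (149.6) and *Dio3* (149.2) followed *Sp9*. *Pcdh7*, a protocadherin gene on chromosome 5 from 58105793 to 58113061, held the most tags of all 476 peaks, 1363, at a fold enrichment of 35.5 and 4.50 Mb from an *Eed-/-* peak. *Dio3*, whose enzyme inactivates thyroid hormone, held 926 tags and *Dmrt2*, a DM-domain gene of the somites, 597. Wide peaks also lay at *Vax2os2*, a non-coding transcript opposite *Vax2* (8578 bp, 787 tags), and at *Osr1*, an odd-skipped gene of the kidney (8037 bp, 700 tags). *Osr1* had the lowest CG density of the 476, 2.10 per 100 bp.

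The weakest peaks lay at genes of mixed function. Fold enrichment was 3.89 at the adhesion gene *Mcam* (103 tags in 3444 bp), 3.92 at the kinase gene *Srms*, 4.27 at *Rapgef3*, which encodes a cAMP-regulated exchange factor, 4.33 at the citrate transporter gene *Slc13a5* and 4.41 at *Rtkn*. Each held between 103 and 128 tags, near the minimum of 101 in the list. Near the 1000 bp limit of the promoter definition, *Myb* (996 bp), *Prdm13* (-985 bp) and *Extl1* (967 bp) were just inside, and *Olfm2* (1017 bp), 1700019N12Rik (-1018 bp) and *Cacna1d* (1019 bp) just outside with 188, 215 and 118 tags.

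The strongest *Eed+/+* promoter peaks and the scores of the *Eed-/-* list are given together here, and no link between them was tested. Of the 40 *Eed+/+* promoter peaks with most tags (983 or more), 6 were *Eed+/+*-only, namely *Pcdh7*, *Sp9*, *Prdm6*, *Foxl2*, *Sp5* and *Hmx3*, and 34 overlapped an *Eed-/-* peak. The partners of those 34 had a median score (the −log10 of the p-value times 10) of 375.1 and a highest of 757.0. In the *Eed-/-* list, the FDR rose with the score along its upper end, to 1.96% at a score of 819.8, the *En2* peak. The list then held no peak up to a score of 1752, above which 13 peaks had an FDR of 0%, 9 of them on chromosomes X and Y. In the *Eed+/+* list 566 peaks had a score within the same interval. The lists differ in depth and enrichment, so their scores are not on the same scale.
The *En2* peak was in place 14 by score, whereas its FDR equals 1 in 51, and the same shift of 37 places gave the FDR of 64 consecutive peaks, to within 0.005 percentage points. If the FDR of those 37 places followed the same rule it would run from 2.00 to 7.14%, at or above 2%, under which a peak had to lie to be listed. Which sites these places stand for is not in the lists, and whether any of them lies at an *Eed+/+*-only promoter was not tested. No overlapping promoter peak had a partner with a score above this interval, where only 4 *Eed-/-* peaks of chromosomes 1 to 19 lay. Few partners were therefore possible there.

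**Figure D4:**
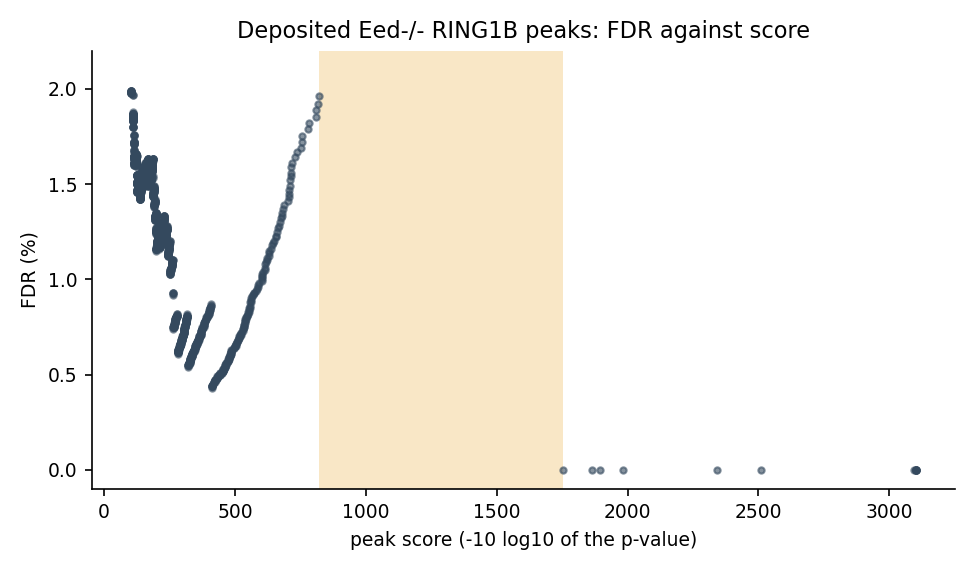
FDR in percent (y axis) against the score, the −log10 of the p-value times 10 (x axis), for the 1810 deposited *Eed-/-* peaks, each of which is a point. The shaded interval from 819.8 to 1752 holds no peak, and the FDR climbs to 1.96% just below it.

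Genes were then grouped by function, with the share of *Eed+/+*-only promoters in each group read against the 40.3% of all promoter peaks. Intervals were wide, and no test compared groups. The 8 groups of transcription factors together had 62 of 179 promoter peaks in the *Eed+/+*-only set (34.6%, 27.7 to 42.1), against 414 of 1002 for all others (41.3%, 38.2 to 44.4). Their peaks were also larger, with a median of 478 tags against 187. Among peaks of similar tags the order was different, with 12 of 15 against 174 of 283 (61.5%) in the lowest bin, 13 of 15 (86.7%, 59.5 to 98.3) against 129 of 278 (46.4%, 40.4 to 52.5) in the second, 19 of 32 (59.4%) against 87 of 264 (33.0%) in the third, and 18 of 117 (15.4%) against 24 of 177 (13.6%) in the highest. With overlap counted from 1 bp, transcription factor promoters under 337 tags had no *Eed-/-* peak at a higher share than others of like tags. These bins held only 15, 15 and 32 transcription factor peaks, and the intervals of the lowest bin overlapped (51.9 to 95.7 and 55.5 to 67.2). The CG density of these transcription factor promoters was also lower, with a median of 4.51 against 5.46 CG per 100 bp in the second bin. Its part in the result was not tested. If an *Eed-/-* peak within 5000 bp counted as shared, 452 of all 476 peaks would stay in the set. Counts would fall from 13 to 7 for *Hox*, 21 to 18 for other homeobox, and 8 to 5 for zinc finger, AP-2 and other regulator genes. For Sox they would fall from 3 to 1, for T-box from 3 to 2 and for bHLH genes from 11 to 10. Forkhead and nuclear receptor counts would stay. The bins of tags were not counted again in this way, so whether the higher share under 337 tags would stay is not known.

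*Hox* cluster genes, which pattern the body axis, were split evenly, with 13 of 26 promoter peaks in each set. The *Eed+/+*-only peaks included those at *Hoxa3* and *Hoxa6*, at *Hoxb1*, *Hoxb4*, *Hoxb9* and *Hoxb13*, at *Hoxc4*, *Hoxc6* and *Hoxc13*, and at *Hoxd3* and *Hoxd12*. All 13 had an *Eed-/-* peak within 100 kb, at gaps of 0.598 to 88.9 kb, whereas the median over all *Eed+/+*-only promoters was 342 kb, and if an *Eed-/-* peak within 5000 bp counted as shared, 7 of 26 (26.9%) would be left. Their tags ran from 107 to 467 with a median of 218, and those of the 13 overlapping *Hox* peaks had a median of 772. In the *HoxA* cluster the 4 *Eed+/+*-only peaks held 107 to 216 tags and the 4 overlapping peaks 239 to 914. In *HoxB* the values were 204 to 437 for 4 peaks and 1082 to 1481 for 2, and in *HoxC* 221 to 284 for 3 peaks and 423 to 865 for 2, so in these 3 clusters every *Eed+/+*-only peak held fewer tags than every overlapping one. In *HoxD* the ranges crossed, with 210 and 467 against 300 to 1399 for 5 peaks. The median fold enrichment was 23.8 in the first set and 38.2 in the second, and CG density was 3.47 and 4.55 per 100 bp. *Hoxb4* (44.5), *Hoxd3* (39.6), *Hoxb9* (36.5) and *Hoxd12* (30.4) had the highest fold enrichments of the 13.

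Other homeobox genes had 21 of 63 promoter peaks (33.3%, 22.0 to 46.3) in the *Eed+/+*-only set. After *Prrx1* and *Hmx3* the highest fold enrichments were at *Dlx6as*, a non-coding transcript opposite *Dlx6* (39.0, and 515 bp from an *Eed-/-* peak), and *Alx1*, a craniofacial gene (33.9). Forkhead genes had the lowest share of the groups with over 10 peaks, 2 of 15 (13.3%, 1.66 to 40.5), and both were strong, *Foxl2* and the endoderm gene *Foxa1* (42.1, 391 tags). The forkhead promoters had a median of 793 tags, the highest of all groups. A group of zinc finger, AP-2 and other regulator genes had 8 of 23 (34.8%), led by *Prdm6*, *Sall3*, *Prdm13* (43.1) and *Ebf1* (42.8). Basic helix-loop-helix genes had 11 of 28 (39.3%), among them *Tcf21* (30.9), *Olig3* (22.2), *Hey2* (18.4) and the bHLH partner gene *Lmo2* (23.6).
T-box genes had 3 of 8, *Tbx20* of the heart (21.5), *Tbr1* of the cortex (18.1) and *Tbx4* of the hindlimb (16.9). Sox genes had 3 of 10, *Sox6* (14.3), *Sox17* (13.4) and *Sox8* (7.45). The *Sox6* and *Sox17* promoters lay 3.96 and 2.08 kb from an *Eed-/-* peak. Of 6 nuclear receptor promoters, the thyroid hormone receptor gene *Thrb* alone (16.0) was in the set.

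Signalling genes ranged from 16.7 to 50.0%. Wnt ligands, receptors and antagonists had 13 of 26 (50.0%, 29.9 to 70.1), with the non-canonical ligand *Wnt5a* (28.1, 609 tags, 2.21 Mb from an *Eed-/-* peak), the antagonist *Frzb* (27.4), the ligand *Wnt2* (14.8) and the agonist *Rspo1* (13.8) highest. *Wnt9b*, *Wnt11* and *Wnt16* were also in the set, at 10.6, 13.5 and 10.2. Bmp, Tgfb and Fgf ligands, receptors and antagonists had 9 of 27 (33.3%). *Fgf5*, a ligand of the post-implantation epiblast, led them (32.0), before the activin antagonist *Fst* (19.3), the Bmp antagonist *Nbl1* (18.2) and *Fgf15* (14.2). Hedgehog and Notch genes had 1 of 6, the Notch feedback gene *Nrarp* (8.66). Of 4 Socs, Spry, Spred and Dusp promoters, *Dusp15* (4.90) was in the set.

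Solute carriers, which encode membrane transporters, had the highest share of the groups, 17 of 27 promoter peaks in the *Eed+/+*-only set (63.0%, 42.4 to 80.6). Their interval alone lay above 40.3%, but the intervals cover counting error only and were not adjusted for the 22 groups. *Slc24a4* (23.1), *Slc6a20a* (19.4), *Slc6a17* (19.1) and the glutamate transporter gene *Slc1a2* (18.6) had the highest fold enrichments. Solute carrier promoters also had few tags, with a median of 127 against 201 for all promoter peaks. Among all promoter peaks of 101 to 138 tags the share was 62.4% (186 of 298), close to that of the solute carriers. The part of tags in the solute carrier share was not tested. Neurotransmitter receptors had 14 of 27 (51.9%, 31.9 to 71.3), among them the glutamate receptor genes *Grin2b* (28.4), *Grm6* (27.8) and *Grm7* (19.2) and the serotonin receptor gene *Htr1b* (21.1). Cadherins and protocadherins had 6 of 12, with *Pcdh7*, *Cdh22* (26.4), *Cdh8* (21.7) and *Cdh4* (19.9) highest.
Voltage-gated and potassium channels had 15 of 43 (34.9%), among them *Kcnd2* (27.7), *Kcnc2* (26.4), *Kcnk2* (24.4) and *Kcnj8* (18.95). Peptide, hormone and orphan G-protein-coupled receptors had 6 of 27 (22.2%, 8.62 to 42.3), with the somatostatin receptor gene *Sstr1* (18.6, 567 tags), the opioid receptor gene *Oprd1* (15.2), *Sstr4* (14.4) and the neurotensin receptor gene *Ntsr1* (10.2) highest. Axon guidance genes had 8 of 26 (30.8%), led by *Epha5* (23.0), *Ntng1* (16.7), *Slit1* (15.9) and *Lrrn2* (12.5). Extracellular matrix and ADAM genes had 12 of 34 (35.3%), led by *Ltbp2* (21.4), *Col12a1* (20.0), *Acan* (14.3) and *Col14a1* (13.8). Promoters of cyclin-dependent kinase inhibitors (0 of 3) and of germline genes (0 of 1) had none. Of 7 promoters of the Polycomb system itself, 2 were in the set, *Bmi1*, which encodes a PRC1 subunit (33.8, 280 tags), and *Phf19*, which encodes a PRC2 partner (5.73). The 732 peaks of genes in no group had a share of 42.3% (38.7 to 46.0).

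**Figure D5:**
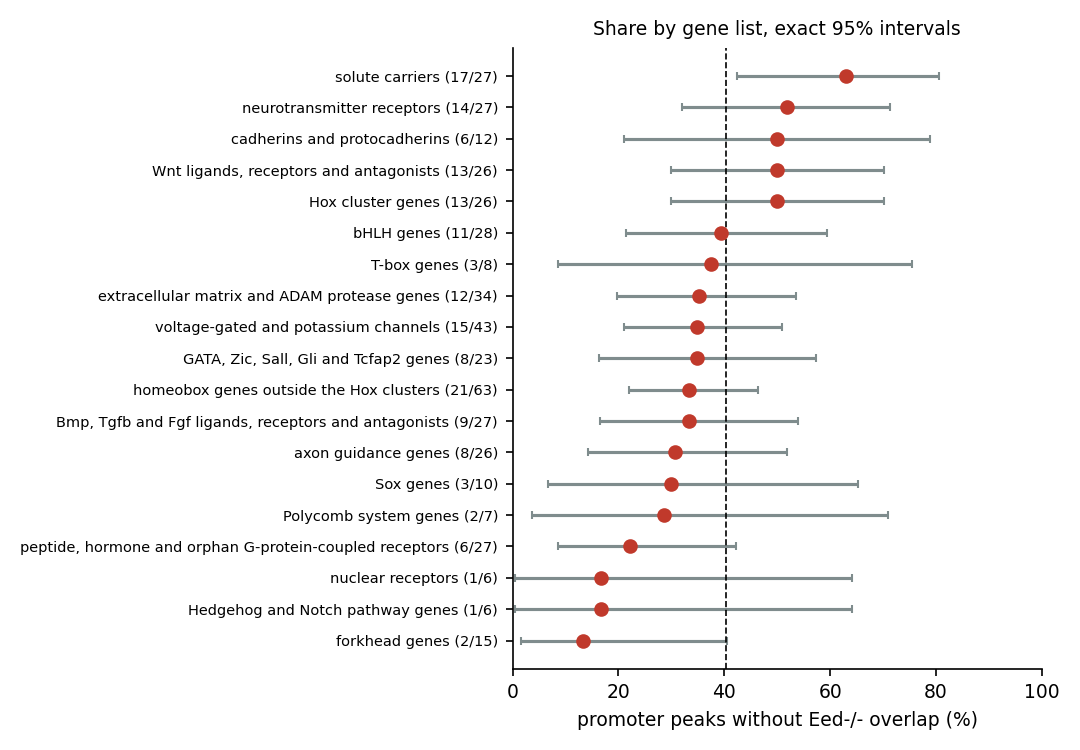
Share in percent of *Eed+/+* promoter peaks with no *Eed-/-* overlap (x axis) for each functional group with at least 6 promoter peaks (y axis, with counts), with exact 95% intervals and a dashed line at 40.3%. Solute carriers are highest at 63.0% and forkhead genes lowest at 13.3%.

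Among gene ontology processes of the deposited lists with at least 20 promoter peaks, calcium ion transport had the highest share, 14 of 27 (51.9%), with the channel genes *Cacna1e* and *Cacna2d1* and the exchanger genes *Slc24a2* and *Slc24a4*. Transport (54 of 113, 47.8%), protein amino acid phosphorylation (22 of 47, 46.8%), ion transport (34 of 75, 45.3%), embryonic skeletal system morphogenesis (9 of 20, 45.0%) and cell adhesion (22 of 49, 44.9%) came next. The share over all promoter peaks was 40.3%, and the lower of these shares lay near it. No interval was computed for a process, and no test compared processes. The lowest shares were those of pattern specification process (3 of 20, 15.0%, namely *Fst*, *Cdx1* and *Hoxd12*), in utero embryonic development (5 of 26, 19.2%), lung development (5 of 22, 22.7%), inner ear morphogenesis (5 of 21, 23.8%), cell differentiation (21 of 84, 25%) and skeletal system development (5 of 20, 25%). Median tags ran from 272 to 546 in the 6 processes of lowest share and from 174 to 354.5 in the 6 of highest share, and their part in this order was not tested. Embryonic skeletal system morphogenesis had the most tags of the latter, 354.5, and the lowest median CG density of these 12 processes, 4.34 per 100 bp. Its 9 *Eed+/+*-only promoters were *Prrx1*, *Alx1*, *Hoxb4*, *Hoxb1*, *Hoxa3*, *Hoxa6*, *Hoxd3*, *Mdfi* and *Bmi1*. No process was assigned to 95 of the 476 peaks (20.0%) and 144 of the 705 (20.4%).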

How the data were processed

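The data were 2 deposited lists of RING1B peaks, 1 for each genotype of mESC. The authors mapped tags to mm9 with bowtie, keeping unique positions, called peaks with MACS (more than 100 tags, FDR under 2%) and assigned the nearest gene. Versions of these tools, and which library served MACS as control, are not given here. Per the file headers and deposited attributes, each peak carries its raw tag count, its enrichment as a fold ratio, the FDR as a percent, and a score that is the −log10 of the p-value times 10. Columns flagging the authors' own comparisons of peak sets were not used. Mapped RING1B tags, as the study gives them, numbered 16814546 (*Eed+/+*) and 70343706 (*Eed-/-*, 4.18 times as many), and the tag minimum was not scaled to depth.

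Overlap was 1 bp or more. CG content was read from NCBIM37 (mm9) and start sites from GENCODE M1. CpG islands came from a running score (17 per CG, -1 otherwise) and had a length of 200 bp or more, a GC content of at least 50% and a CpG ratio (observed to expected) of at least 0.6. Shares carry exact (Clopper-Pearson) 95% intervals. No test was run over peaks. The set of peaks, the 22 gene groups and the rules were chosen with earlier results of these data known. Genes are named by rule: the 10 *Eed+/+*-only peaks of highest fold enrichment, 10 with most tags per kb, 5 widest, 5 lowest, those nearest each limit, up to 4 per group by fold enrichment, and the 6 highest and 6 lowest processes with at least 20 promoter peaks. The 6 peaks among the 40 with most tags, the *Hox* genes, further Wnt and process members, *En2* and the genes of the printed windows were chosen after their values were seen. Some single items are not reported here. The overlap and island code recovered all planted cases on simulated data. Python 3.11.15, numpy 2.4.6, pandas 2.3.3, scipy 1.17.1, pysam 0.24.0 and matplotlib 3.10.9 were used.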

Additional observations from a re-analysis of the deposited data

How the results depend on the processing

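No paired analysis was possible because each genotype has 1 deposited peak list, in which the numbered samples are pooled. Of 65 alternative values for the share of *Eed+/+*-only promoters, the ratios of medians to the overlapping set and the island shares, 44 stayed within the interval of the reported value. Every ratio of medians (width, tags per kb, fold enrichment, CG density) stayed below 1 under every alternative tried.

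With 50% of the *Eed+/+* peak to be covered, the share was 45.8% and the ratios were 0.965 (width), 0.778 (tags per kb), 0.740 (fold enrichment) and 0.825 (CG density). With *Eed-/-* peaks of an FDR up to 1%, which drops peaks of high score as well as of low score, the share was 84.3%, the ratios were 0.774, 0.603, 0.491 and 0.895, and the island shares were 98.5% and 100%. With *Eed+/+* fold enrichment of at least 10, the share was 35.5% and the ratios were 0.774 (tags per kb) and 0.707 (fold enrichment). The width ratio was 0.842 up to 2000 bp from the start site and 0.847 for all peaks that contain an annotated start site, where tags per kb gave 0.690. Within 500 bp, 100% of overlapping peaks had an island. Stricter islands gave 75.8% and 95.3%. For the functional groups 2 alternatives were run, and the *Hox* share moved out of its interval when *Eed-/-* peaks within 5000 bp counted as shared (26.9%). No other group did so there or with genes counted in place of peaks. The share thus depends most on the FDR limit of the *Eed-/-* list, and the cause of the other shifts was not tested.

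Depth limits the comparison, since a peak in either list needs more than 100 tags at mapped totals that differ. Each list is 1 call, nearest genes need not be the regulated genes, and groups with under 10 promoter peaks have intervals that span most values.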

Other observations

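The X chromosome was outside the set described above. Of its 21 *Eed+/+* promoter peaks, 16 (76.2%, exact 95% interval 52.8 to 91.8) had no *Eed-/-* peak, among them *Fgf16*, which encodes a growth factor (fold enrichment 36.1), and *Pou3f4*, a POU homeobox gene (25.04), both named after their values were seen. Overlap was found at *Bcor*, *Chst7*, *Hs6st2*, *Sox3* and *Cited1*. The 16 X peaks held 102 (*Rai2*) to 289 tags (*Fgf16*), and those that overlapped held 148 (*Bcor*) to 402 (*Cited1*). Promoter peaks of chromosomes 1 to 19 had a median of 201 tags. The part of tags in the share on the X chromosome was not tested. On chromosomes 1 to 19 the share ran from 29.5% on chromosome 17 to 55.7% (34 of 61, 42.4 to 68.5) on chromosome 15.

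The opposite set held 283 *Eed-/-* promoter peaks with no *Eed+/+* peak. Over whole peaks its median was 6.85 CG per 100 bp, against 4.98 in the *Eed+/+*-only promoters and 5.84 in the overlapping ones. These 283 peaks were narrow (1716 bp against 2723 bp in the overlapping promoters). Summit windows wider than the printed ones, and of equal width for every peak, were also counted. In these wider windows the median of the 283 peaks was 86 CG, close to 85 in the overlapping promoters. The *Eed+/+*-only promoters had 71.5 CG in such windows. The excess over the overlapping promoters was thus seen over whole peaks, at unlike widths, and hardly at equal width. The 283 peaks had a median fold enrichment of 4.75 in their own list, whose depth differs.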
